A study of Mus musculus with 6 samples.

Results

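The angiopoietin and Tie receptor system was followed through 5 genes, taken by symbol from the features of the deposited table: the ligands Angpt1 and Angpt2, the receptors Tek (also called Tie2) and Tie1, and the receptor phosphatase Ptprb (also called VE-PTP). All 5 were measured, each by 1 feature, among 23279 genes. Whole fetal livers of mouse embryos at embryonic day 11.5 had been hybridised to 6 Affymetrix arrays. The 3 arrays labelled Stab2Cre;Gata4 knockout came from livers in which Cre, driven by the transgene named for the sinusoidal endothelial receptor gene Stab2, acts on 2 floxed alleles of Gata4. The 3 control arrays carry titles that read Stab2Cre;Gata4 heterozygous. By these titles both groups carried the Cre transgene, and the controls were heterozygous for Gata4. Not given in the sources used here are the number of embryos behind an array and their litters. Gata4 encodes a zinc-finger transcription factor, and the title of the series asks what it does in liver endothelium for liver growth and blood formation.

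Angiopoietin 1, made largely by cells around vessels and by blood cells, activates Tek on endothelial cells and favours quiet, stable vessels. Angiopoietin 2 is made mainly by endothelial cells themselves and, depending on context, opposes or mimics angiopoietin 1. Tie1 binds no angiopoietin on its own and modulates Tek, and Ptprb removes phosphate from Tek and from the junction protein VE-cadherin. In sprouting vessels Angpt2 marks the leading tip cells, and its transcription is known to respond to VEGF, hypoxia and the factor Foxo1.

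The targeted gene did not check the labels. Gata4 read 10.38, 10.26 and 10.64 in livers labelled knockout, against 9.90, 9.96 and 9.87 in control livers, a 1.43-fold rise (limma adjusted p = 0.0409) that, of the 6 fits without 1 array, passed in the one without labelled knockout replicate 2 (adjusted p up to 0.144 in the other 5). Other liver cells express Gata4, and probes outside the deleted part would check nothing, so each direction below rests on the labels. The liver genes Alb and Afp averaged 13.3 to 13.5 in each group, close to the highest deposited value of 13.91. Xist and 3 Y-linked genes split the arrays unevenly by embryo sex: the livers labelled knockout and control replicate 2 read as female (Xist 10.2 to 10.7), and control replicates 1 and 3 as male (Xist 3.58 and 3.96). Differences of the 5 genes and medians of the endothelial, tip cell, junction and regulator lists are therefore also given against control replicate 2 alone. Markers of heart muscle differed widely within both groups, the median level of 12 such genes lying between 4.71 and 5.82 in livers labelled knockout and between 4.69 and 6.88 in control livers.

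Of the 5 genes, Angpt2 was higher in livers labelled knockout and the other 4 did not pass the test. An adjusted p of 0.05 from limma, a linear model with moderated variance fitted across all genes, was the threshold. By that rule 6.36% of all genes passed, 3.59% in the upward direction and 2.77% in the downward direction. Across the system the median log2 difference was 0.05, against −0.01 over all genes.

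**Figure D1:**
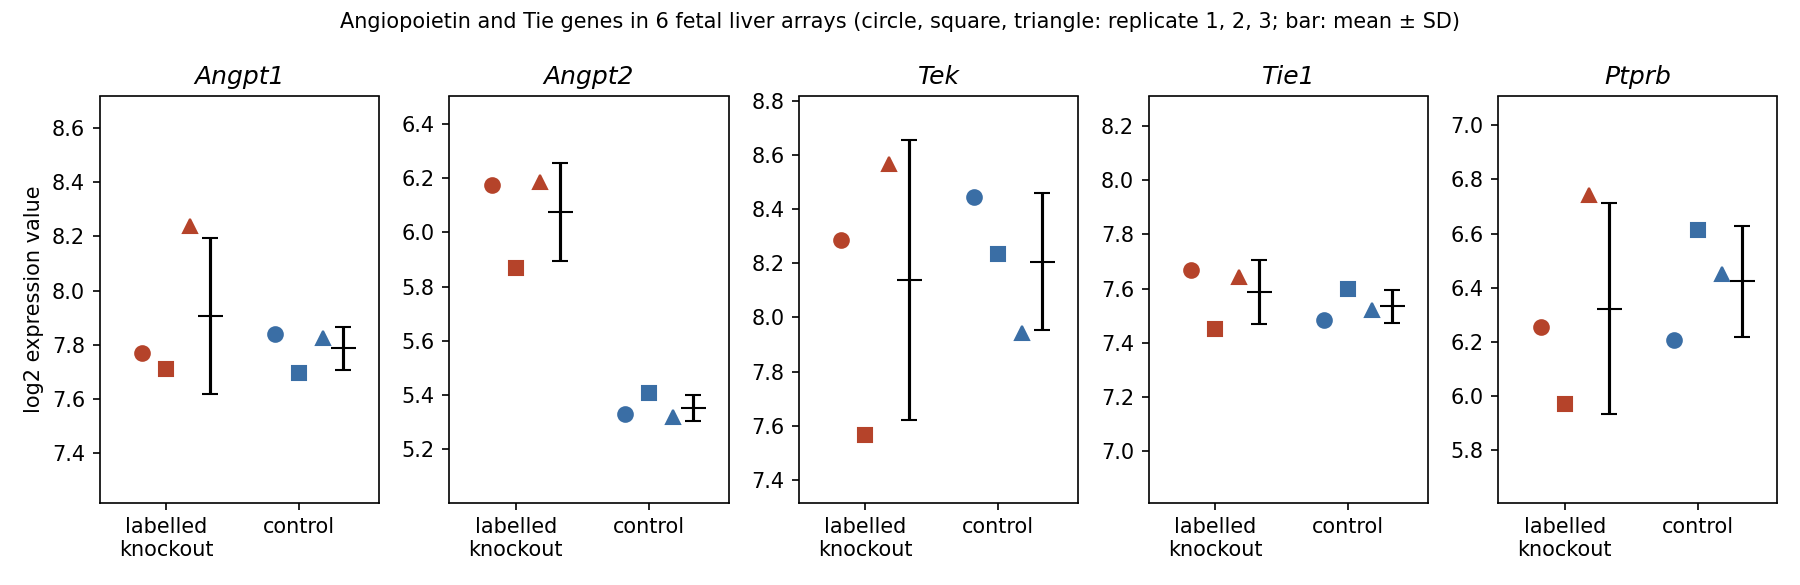
The log2 expression value of each gene in each array (vertical axis, all panels spanning the same number of log2 units), with livers labelled knockout at the left and control livers at the right. Points are replicates and the bar is the mean ± SD over n = 3. Angpt2 sits between 5.87 and 6.19 in livers labelled knockout, above every control value, and the other 4 genes overlap between the groups.

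Angpt2 read 6.17, 5.87 and 6.19 in livers labelled knockout, against 5.33, 5.41 and 5.32 in control livers (log2 values). The lowest liver labelled knockout lay above the highest control, and Angpt2 was the 1 gene of the 5 whose groups did not overlap, against 27.3% of all genes (13% in the upward direction). The mean was 6.08 ± 0.18 in livers labelled knockout and 5.35 ± 0.05 in control livers (SD, n = 3 each), a 1.65-fold rise (log2 difference 0.72, SE 0.11, 95% interval 0.47 to 0.98, limma adjusted p = 0.0161). Only 1.99% of all genes had a larger upward difference. The call was lost without labelled knockout replicate 3 (log2 difference 0.67, adjusted p = 0.0593) and without control replicate 3 (0.71, adjusted p = 0.0735), fits in which 1.13% and 0.176% of all genes passed. It was kept only at the edge of the threshold without control replicate 1 (0.71, adjusted p = 0.05 after rounding) and without control replicate 2 (0.75, adjusted p = 0.0492). Against the sex-matched control replicate 2 alone the log2 difference was 0.67 (adjusted p = 0.303), in a fit where the spread comes from the livers labelled knockout and the lone control is assumed to vary like them. With a sex term it was the same 0.67 (adjusted p = 0.198), since no liver labelled knockout read as male, so the 2 fits are 1 contrast and differ in their estimate of the spread. In them 0% and 0.0129% of all genes passed. The mean of Angpt2 over the 6 arrays lay at the 51.9th percentile of all genes, so its signal was of middling strength.

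Whether the increase of Angpt2 lay in more cells that express it, endothelial or other, or in more transcript per cell cannot be told apart here. In RNA of a whole tissue, fewer cells of a type and less RNA per cell give the same reading. That limit holds for each of the genes described here.

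Angpt1, the activating ligand, read 7.77, 7.71 and 8.24 in livers labelled knockout, against 7.84, 7.70 and 7.83 in control livers. The groups overlapped, and only labelled knockout replicate 3 stood above all controls. The mean was 7.91 ± 0.29 in livers labelled knockout and 7.79 ± 0.08 in control livers (SD, n = 3 each), with a log2 difference of 0.12 (95% interval −0.22 to 0.46, limma adjusted p = 0.717). That interval holds neither the difference seen for Angpt2 nor a 1.5-fold fall. Without labelled knockout replicate 3 the difference was −0.05, and against control replicate 2 alone it was 0.21. In adults and embryos Angpt1 is also made by megakaryocytes, pericytes, stellate cells and heart muscle, so the marker lists of these cells were read beside it. Of 10 measured megakaryocyte markers, 4 fell and 0 rose (median level 7.68 to 8.48 in livers labelled knockout and 8.58 to 8.90 in control livers). All 10 log2 differences were negative, with a median of −0.82. The count of 4 depended on the arrays kept. Leaving out labelled knockout replicate 1, 2 or 3 gave 10, 1 and 0, in fits where 5.99%, 3.96% and 1.13% of all genes passed. Leaving out control replicate 1, 2 or 3 gave 0 each time, where 2.38%, 1.58% and 0.176% passed. The sex term gave 0 as well, where 0.0129% passed. The list median stayed between −1.05 and −0.65 over the 6 fits without 1 array and was −0.77 with the sex term. Of 17 pericyte and stellate markers, 5 rose and 0 fell (median level 7.62 to 8.06 in livers labelled knockout and 7.56 to 7.89 in control livers). Their log2 differences were positive for 15 of the 17, with a median of 0.47. The number that rose was 3 without control replicate 1, and 1 without labelled knockout replicate 3, without control replicate 2 or 3, or with the sex term. The shares of all genes that passed in these fits are those given above. The median of the pericyte and stellate list lay between 0.36 and 0.49 over the 6 fits without 1 array and was 0.46 with the sex term. None of the 12 heart markers passed, and the heart muscle gene Tnnt2 read highest in labelled knockout replicate 3 (8.82) and control replicate 2 (9.08). Angpt1 was high in the first of these arrays and lowest of all in the second. The part of these cells in the Angpt1 values was not tested.

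Set against each other within arrays, the 2 ligands parted between the groups by more than the spread of either. With the control mean set to 0, the within-array log2 difference of Angpt2 minus Angpt1 was 0.84, 0.59 and 0.38 in livers labelled knockout, against −0.07, 0.15 and −0.07 in control livers. All 3 livers labelled knockout exceeded all controls, by 0.60 on average (SD 0.23 in livers labelled knockout and 0.13 in control livers, n = 3 each), which is a 1.52-fold change of the ratio. The exact permutation test over arrays gave p = 0.1 (two-sided), the smallest that 3 arrays against 3 allow, and 0.16 after Benjamini-Hochberg adjustment over the 8 within-array comparisons made. The value lay between 0.49 and 0.72 when any 1 array was left out and was 0.46 against control replicate 2 alone. The comparison concerns change only, because levels of different features cannot be set against each other.

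**Figure D2:**
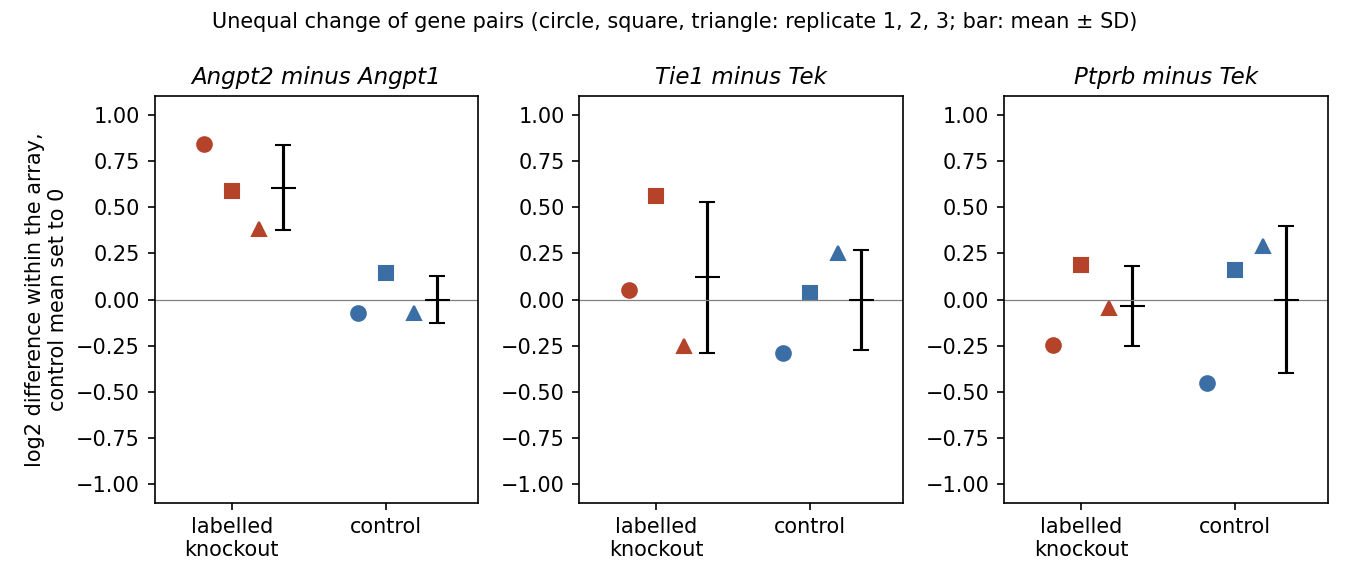
The log2 difference between 2 genes of the same array (vertical axis), with the control mean set to 0, in livers labelled knockout (left) and control livers (right). Points are replicates and the bar is the mean ± SD over n = 3. The Angpt2 minus Angpt1 difference lies between 0.38 and 0.84 in livers labelled knockout, above every control, while Tie1 minus Tek and Ptprb minus Tek overlap between the groups.

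Upstream sequence was found by symbol for 2 of the 5 genes, Tek and Tie1, in the RefSeq promoter table of build GRCm38.p6. Both are shown because they are the receptor pair and because ETS factors, whose core motif is GGAA, are known regulators of endothelial genes. Each line gives the 250 bases before the annotated start, 5′ to 3′ on the gene's own strand, with every GGAA or its reverse complement TTCC in capitals. The Tek stretch is chr4:94739039-94739288 on the plus strand and the Tie1 stretch is chr4:118489850-118490099 on the minus strand.
Tek: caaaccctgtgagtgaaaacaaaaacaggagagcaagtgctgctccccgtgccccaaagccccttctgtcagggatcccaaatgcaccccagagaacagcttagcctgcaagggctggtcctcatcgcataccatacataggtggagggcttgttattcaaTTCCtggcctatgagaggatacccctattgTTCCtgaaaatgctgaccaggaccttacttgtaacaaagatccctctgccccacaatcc
Tie1: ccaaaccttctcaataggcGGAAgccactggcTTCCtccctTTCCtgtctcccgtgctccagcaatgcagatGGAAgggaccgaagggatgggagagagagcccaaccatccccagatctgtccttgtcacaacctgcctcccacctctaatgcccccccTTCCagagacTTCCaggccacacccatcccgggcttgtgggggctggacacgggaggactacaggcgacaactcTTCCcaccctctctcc
Tek holds 2 such cores and Tie1 holds 7. At least 7 were present in 3.82% of 32851 upstream windows of this length, and at least 2 in 76.8%, with a median of 3. Neither stretch holds AGATAA or TGATAA, forms of the GATA motif, on either strand (16.6% of windows do), nor GTAAACA, a FOXO motif (3.17% do). A letter match is a description of these windows and says nothing of binding.

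Tek, the angiopoietin receptor of endothelium and of some blood stem cells, varied most among the 5 genes. It read 8.29, 7.57 and 8.57 in livers labelled knockout, against 8.44, 8.23 and 7.94 in control livers. The livers labelled knockout held both the lowest and the highest value, 1.00 log2 units apart, so the groups overlapped completely. The mean was 8.14 ± 0.52 in livers labelled knockout and 8.21 ± 0.25 in control livers (SD, n = 3 each), with a log2 difference of −0.07 (95% interval −0.64 to 0.50, limma adjusted p = 0.921). The standard error of 0.25 exceeded that of 97.2% of all genes and the interval is wide enough to hold a 1.5-fold fall. Without labelled knockout replicate 2, the low array, the difference was 0.22 (adjusted p = 0.536), and against control replicate 2 alone it was −0.10. The same array had the lowest endothelial markers of its group: the median change of 18 pan-endothelial markers from the control mean was 0.36, 0.25 and 0.51 in labelled knockout replicates 1, 2 and 3. For 14 blood stem and progenitor markers that change was −0.06, −0.49 and −0.21. Of these 14, 2 fell, Ptprc (−1.16) and Cd48 (−0.50), and 0 rose (median −0.31). The log2 difference was positive for 4 of the 14, with Meis1 (0.85, limma adjusted p = 0.134) and Mecom (0.83, adjusted p = 0.224) furthest up. The number that fell was 0 to 5 over the 6 fits without 1 array and 0 with the sex term. The part of either cell type in the Tek values was not tested.

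Tie1, the orphan receptor of the pair, was the steadiest gene of the system. It read 7.67, 7.45 and 7.64 in livers labelled knockout, against 7.48, 7.60 and 7.52 in control livers. All 6 values fell within a narrow band and the groups overlapped. The mean was 7.59 ± 0.12 in livers labelled knockout and 7.53 ± 0.06 in control livers (SD, n = 3 each), with a log2 difference of 0.05 (95% interval −0.17 to 0.28, limma adjusted p = 0.825), an interval that holds no 1.5-fold change in either direction. Its standard error of 0.10 exceeded that of 21.9% of all genes. Against control replicate 2 alone the difference was −0.01.

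The receptors were not shown to have changed unequally. With the control mean at 0, Tie1 minus Tek was 0.05, 0.56 and −0.25 in livers labelled knockout, against −0.29, 0.04 and 0.25 in control livers (difference 0.12, exact permutation p = 0.6, two-sided, and 0.686 adjusted over the 8 comparisons). The spread within each group was larger than the difference, and the high value came from labelled knockout replicate 2, the array with the low Tek reading.

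Ptprb, the phosphatase that acts on Tek and VE-cadherin, read 6.26, 5.97 and 6.74 in livers labelled knockout, against 6.21, 6.61 and 6.45 in control livers. Labelled knockout replicate 2 was again the lowest array and replicate 3 the highest, as for Tek. The mean was 6.32 ± 0.39 in livers labelled knockout and 6.42 ± 0.21 in control livers (SD, n = 3 each), with a log2 difference of −0.10 (95% interval −0.55 to 0.35, limma adjusted p = 0.836). Against control replicate 2 alone the difference was −0.29, and without labelled knockout replicate 2 it was 0.07. Ptprb minus Tek was −0.25, 0.19 and −0.04 in livers labelled knockout, against −0.45, 0.16 and 0.29 in control livers (difference −0.03, exact permutation p = 1, two-sided). Of the other receptor phosphatases of its subfamily, Ptprj differed by −0.43 (95% interval −0.78 to −0.08, adjusted p = 0.138), and Ptpro, Ptprh and Ptprq read below 4. None of the 4 passed.

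Endothelial markers were read beside the receptors. Of 18 pan-endothelial markers other than the receptors themselves, 6 rose, 0 fell and 12 did not pass, and all 18 had a positive log2 difference. Their median was 0.38. Against control replicate 2 alone it was 0.39. The 4 with the smallest p were the adhesion molecule Pecam1 (0.63, SE 0.09, limma adjusted p = 0.0141), the sialomucin Emcn (1.00, SE 0.15, adjusted p = 0.0151), the surface protein Ecscr (0.43, adjusted p = 0.0308) and VE-cadherin, Cdh5 (0.53, adjusted p = 0.0374). The VEGF receptor Kdr differed by 0.43 (adjusted p = 0.0578). Tek, Tie1 and Ptprb, at −0.07, 0.05 and −0.10, lay below the lowest of the 18, Mmrn2 at 0.07. That order holds for this list alone: Nos3 (−0.10), Plvap (−0.06), Stab1 (−0.05) and Fli1 (−0.18), endothelial genes outside the 18, lay in or below the range of the receptors. The number that passed was 3, 6 and 1 without labelled knockout replicate 1, 2 or 3, and 2, 0 and 0 without control replicate 1, 2 or 3. In these 6 fits, in that order, 5.99%, 3.96%, 1.13%, 2.38%, 1.58% and 0.176% of all genes passed. The same shares stand beside the counts of every other list in these fits. The list median stayed at 0.25 to 0.46 over the 6 fits that each left out 1 array. With the sex term 0 of the 18 passed, in a fit where 0.0129% of all genes did.

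**Figure D3:**
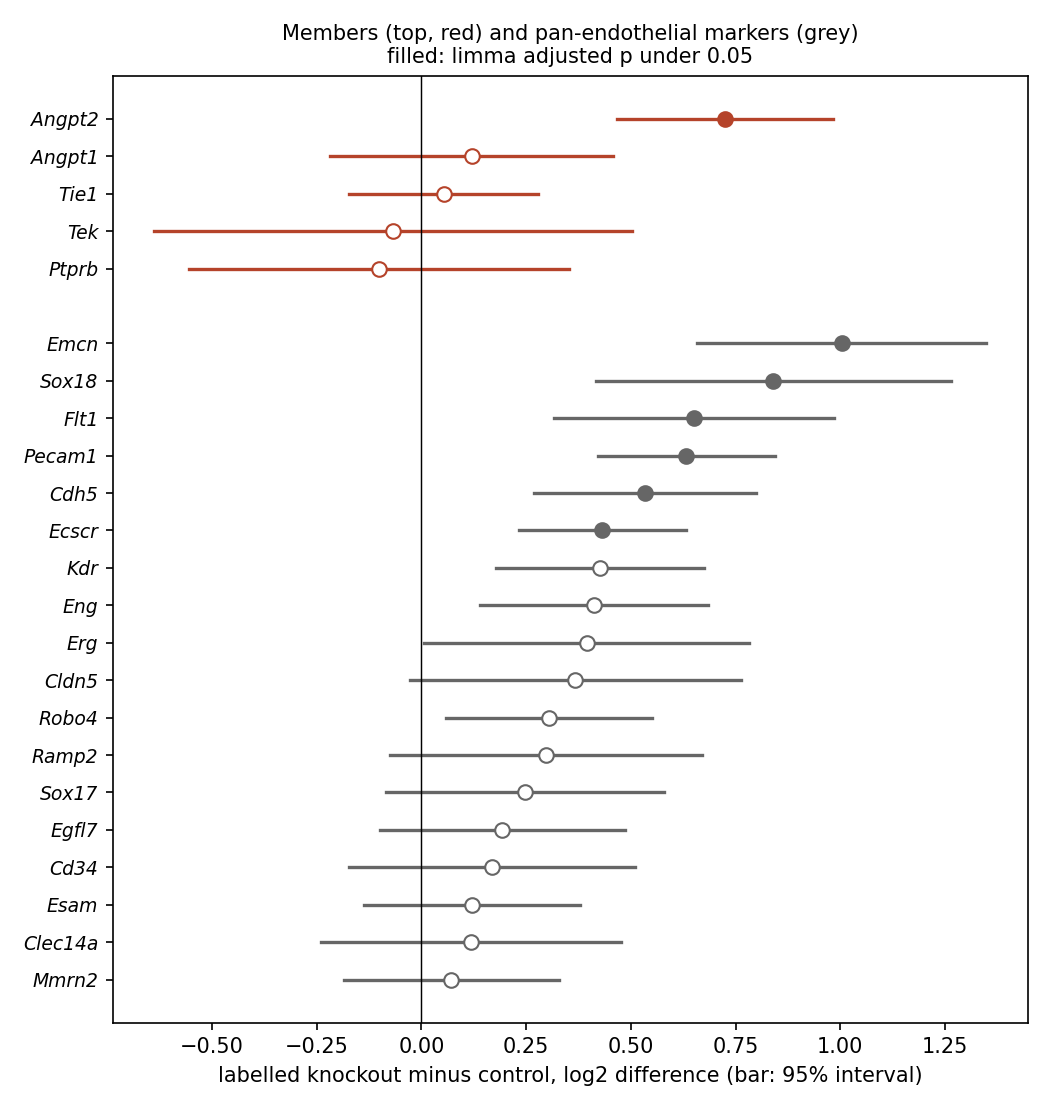
The labelled knockout minus control log2 difference (horizontal axis) of the 5 genes of the system, at the top in red, and of 18 pan-endothelial markers, in grey. Bars are 95% intervals of the limma fit and filled points passed an adjusted p of 0.05. Angpt2 (0.72) lies among the risen markers, and the other 4 genes lie between −0.10 and 0.12.

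The same values were also set out within arrays, each gene against the median level of the 18 markers in its own array. This uses the arrays that showed the pattern above and is no separate evidence for it. The median level was 8.08, 7.65 and 8.13 in livers labelled knockout, against 7.57, 7.25 and 7.25 in control livers. On average that level parted the groups by more than the median marker change of 0.38, so the differences below are shifted downward to that extent. Tek was −0.64, −0.93 and −0.41 in livers labelled knockout, against 0.02, 0.14 and −0.16 in control livers, with the control mean at 0. Tie1 was −0.58, −0.38 and −0.66 in livers labelled knockout, against −0.27, 0.17 and 0.09 in control livers. Ptprb was −0.88, −0.75 and −0.45 in livers labelled knockout, against −0.43, 0.30 and 0.13 in control livers. For these 3 genes every liver labelled knockout lay below every control. The differences were −0.66 ± 0.26 for Tek, −0.54 ± 0.15 for Tie1 and −0.70 ± 0.22 for Ptprb (SD over n = 3 livers labelled knockout), each with an exact permutation p = 0.1 (two-sided, the smallest possible; 0.16 adjusted over 8). Angpt1 differed by −0.47 with the same p. Angpt2 differed by 0.13 with overlapping groups (exact p = 0.5).

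The size of these relative differences depended on how the markers were summarised. When each marker was first centred on its control mean and the median then taken, a choice made after seeing the data, the differences were −0.44 for Tek (groups overlapping, exact permutation p = 0.2), −0.32 for Tie1 (no overlap, p = 0.1) and −0.48 for Ptprb (overlapping, p = 0.2). By that measure Angpt2 differed by 0.35, with no overlap (exact permutation p = 0.1), and Angpt1 by −0.26 (overlapping, p = 0.2). The receptors and the phosphatase had a negative sign by both measures, and of the 3, Tie1 alone kept its groups apart by both.

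**Figure D4:**
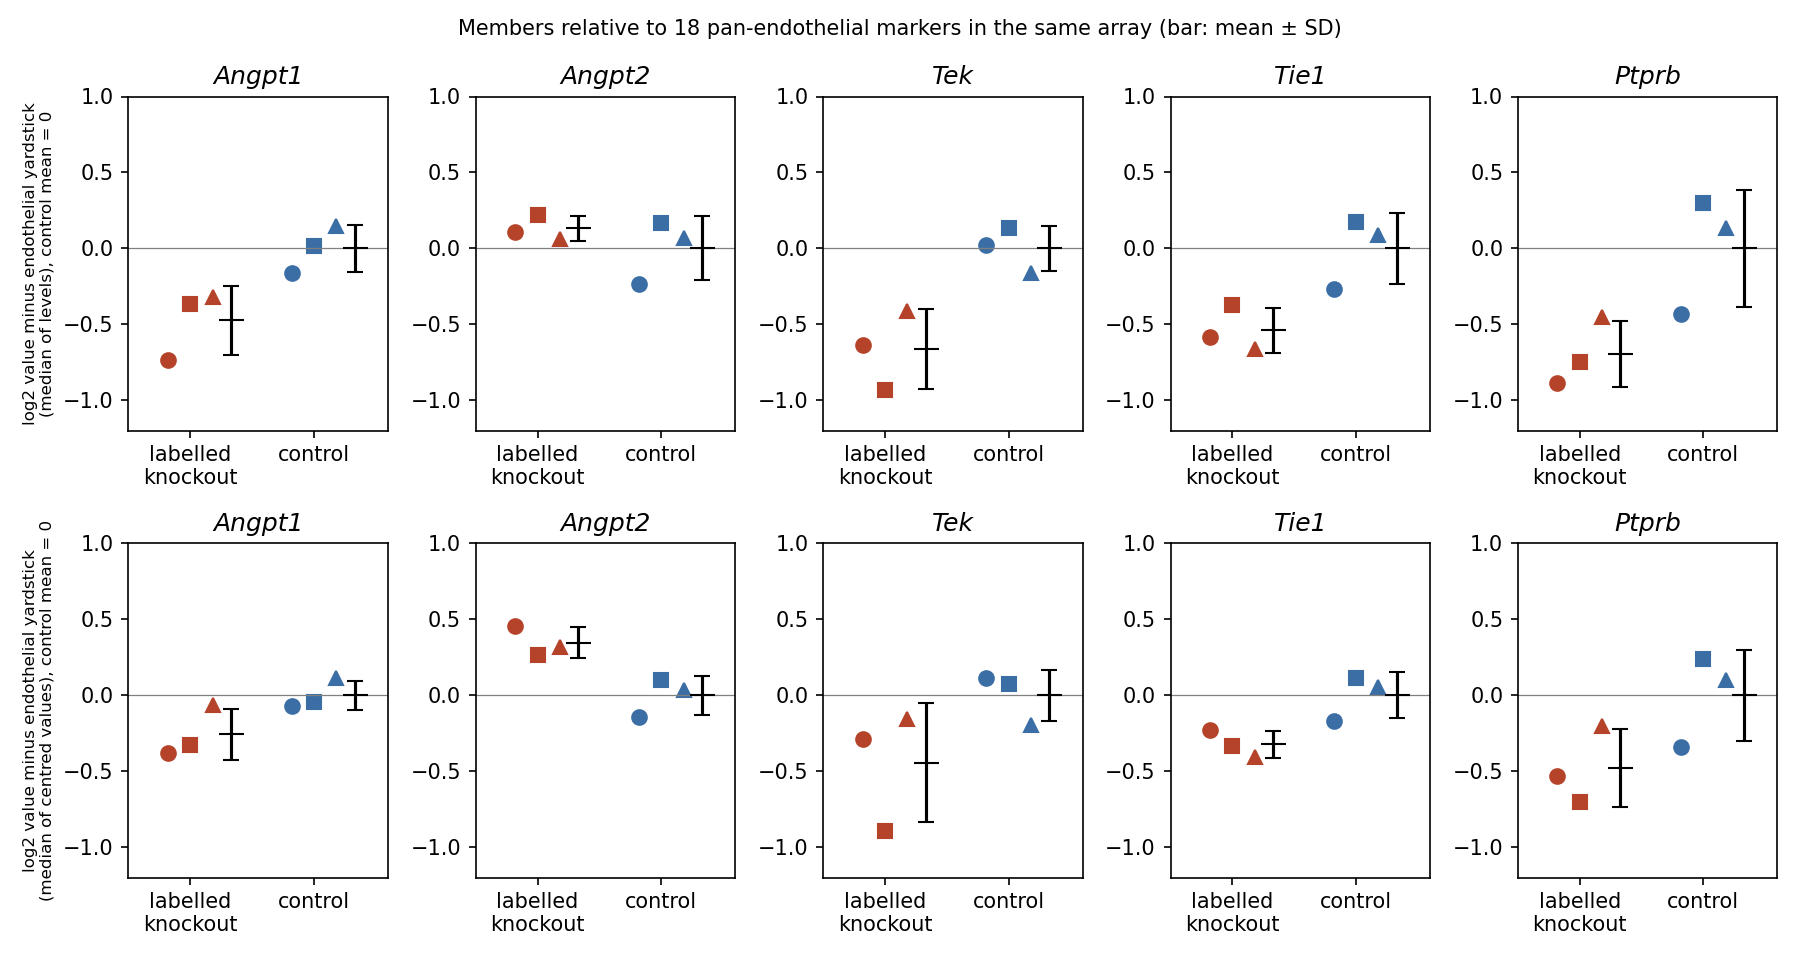
Each gene's log2 value minus an endothelial yardstick from the same array (vertical axis), with the control mean set to 0, in livers labelled knockout (left in each panel) and control livers (right). The upper row uses the median level of 18 pan-endothelial markers and the lower row the median of their values centred on the control mean, and bars are mean ± SD over n = 3. Tek, Tie1 and Ptprb average −0.66, −0.54 and −0.70 in livers labelled knockout in the upper row, and −0.44, −0.32 and −0.48 in the lower row.

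Genes of tip cells, the cells that Angpt2 marks in sprouting vessels, were on balance higher as well. Of 17 tip cell genes other than Angpt2, 9 rose, 0 fell and 8 did not pass, with a median log2 difference of 0.47 (0.41 against control replicate 2 alone). The difference was positive for 15 of the 17. Among the 8 were Dll4 (0.31, limma adjusted p = 0.145), Cxcr4 (0.05), Pdgfb (0.005), Plvap (−0.06) and Plaur (−0.17). Pericyte and stellate markers also had a median of 0.47, and the part of other cells in the tip cell values was not tested. Lama4, Esm1, Kcne3 and Unc5b had the smallest p of the 17. The laminin chain gene Lama4 rose by 1.13 (SE 0.13, limma adjusted p = 0.00979), the secreted proteoglycan gene Esm1 by 0.86 (SE 0.11, adjusted p = 0.0122), the potassium channel subunit gene Kcne3 by 1.08 (SE 0.17, adjusted p = 0.017) and the netrin receptor gene Unc5b by 0.69 (SE 0.11, adjusted p = 0.019). Esm1, for example, read 5.38, 5.58 and 5.42 in livers labelled knockout, against 4.42, 4.63 and 4.75 in control livers, with no overlap. The number of tip cell genes that passed was 5, 8 and 3 when labelled knockout replicate 1, 2 or 3 was left out. It was 4, 3 and 0 when control replicate 1, 2 or 3 was left out, and 0 with the sex term. Their median lay between 0.43 and 0.52 over the 6 fits without 1 array. In these fits Esm1 and Lama4 each lost the call without control replicate 3 alone (adjusted p = 0.0536 for both), Kcne3 also without control replicate 2, and Unc5b without labelled knockout replicate 3 or control replicate 1 or 3.

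Of 15 sinusoidal markers, 8 fell, 1 rose and 6 did not pass (median −0.48, or −0.95 without the dimmest 50% of genes). The one that rose was Rspo3, which encodes a secreted Wnt enhancer (0.77, limma adjusted p = 0.0161). The number that fell was 5 to 7 in the fits without any 1 array other than control replicate 3, 2 without that control and 0 with the sex term. Of 13 macrophage markers, 11 fell and 0 rose (median −1.27), the median level lying between 6.60 and 6.66 in livers labelled knockout and between 7.29 and 7.86 in control livers. That count was 7 to 12 without any 1 array other than control replicate 3, 2 without that control and 0 with the sex term. The mannose receptor gene Mrc1 (−1.06) is on both lists, and macrophages are also known to express Lyve1 (−1.14), Maf (−0.48) and Tfec (−1.55) of the sinusoidal list. The other sinusoidal markers that fell were Stab2 (−1.30), Gpr182 (−1.18), Oit3 (−0.84) and Dnase1l3 (−0.56). Dnase1l3 was dim, its mean lying at the 23rd percentile of all genes. The part of macrophages in the sinusoidal values was not tested.

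Of 22 genes known to regulate members of the system, 6 rose, 2 fell and 14 did not pass. Their median was 0.24, or 0.25 with control replicate 2 as the only control. Sox18, which rose by 0.84 (limma adjusted p = 0.0388), Erg and Sox17 are also among the 18 pan-endothelial markers. Prox1 is also a listed hepatoblast marker and Gata2 a listed stem and progenitor marker, so the regulator list is not separate from those lists. Sox7 (0.75) and Foxc1 (0.72) also rose, and Lmo2 (−0.61) fell. Vegfa, the growth factor known to raise Angpt2 in endothelium, read 10.59, 10.39 and 10.48 in livers labelled knockout, against 9.24, 9.18 and 9.16 in control livers, a 2.45-fold rise (log2 difference 1.29, SE 0.09, limma adjusted p = 0.00525) that passed without any 1 array. With the sex term its difference was 1.30 and did not pass (adjusted p = 0.109), nor did it against control replicate 2 alone (adjusted p = 0.259). The venous factor Nr2f2 rose by 0.76 (adjusted p = 0.0104) and the ETS factor Ets1 by 0.49 (adjusted p = 0.0266). Tal1, a factor of blood and endothelial progenitors, fell by 0.98 (adjusted p = 0.0074). Tal1 is itself on the list of 10 erythroid markers, of which 4 fell, Tal1 among them (1 without control replicate 3 and 0 with the sex term). Nr2f2 lost the call without control replicate 3 (adjusted p = 0.0553), and Ets1 without labelled knockout replicate 3 or any 1 control (adjusted p up to 0.102). Leaving out labelled knockout replicate 3 left 3 regulators called, and leaving out control replicate 1, 2 or 3 left 4, 3 and 2. With the sex term 0 regulators passed. The hypoxia factor genes Epas1 (0.66, adjusted p = 0.0792) and Hif1a (0.06, adjusted p = 0.87) did not pass, their products being controlled largely through protein stability.

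The FOXO list did not move one way. Foxo1, which activates Angpt2 and is switched off by Tek signalling through Akt, read 7.87, 7.92 and 7.85 in livers labelled knockout, against 7.60, 7.86 and 7.63 in control livers. Only control replicate 2 reached into the range of the livers labelled knockout, and the log2 difference of 0.18 did not pass (95% interval −0.05 to 0.42, limma adjusted p = 0.343). Of 16 FOXO factors and target genes, 2 rose, 2 fell and 12 did not pass (median 0.02). The binding protein gene Igfbp1 rose by 1.52 (SE 0.15, adjusted p = 0.0074) and the cyclin gene Ccng2 by 0.74 (adjusted p = 0.0323), while the thioredoxin inhibitor gene Txnip fell by 0.77 (adjusted p = 0.0249) and the flow-responsive factor gene Klf2 by 0.51 (adjusted p = 0.0272). Igfbp1 passed in all 6 fits without 1 array, Txnip in 2, and Ccng2 and Klf2 in 1 each. With control replicate 3 left out their adjusted p-values were 0.0988, 0.109 and 0.106. Igfbp1 is also a liver and hypoxia gene, so its source in these livers is not given by the array.

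Signalling parts downstream of Tek were mostly within the spread. Of 18 adaptors and effectors, 1 rose, 1 fell and 16 did not pass (median 0.05). The kinase gene Src rose by 0.41 (SE 0.09, limma adjusted p = 0.0447) and the PI3-kinase subunit gene Pik3cb fell by 0.61 (SE 0.11, adjusted p = 0.0269). When each array was left out in turn Src passed in 0 of 6 fits and Pik3cb in 1, and with control replicate 3 left out their adjusted p-values were 0.155 and 0.106. The kinase gene Map2k1 (0.51, adjusted p = 0.063) and the phosphatase gene Ptpn11 (−0.33, adjusted p = 0.0937) did not pass. Nos3, the endothelial nitric oxide synthase gene, differed by −0.10 (adjusted p = 0.721). Of 6 genes of integrins reported to bind angiopoietins, 0 passed, Itgb3 being furthest from 0 (−0.87, adjusted p = 0.0698). Itgb3 is also a platelet gene. Its values of 10.31, 9.61 and 9.26 in livers labelled knockout, against 10.53, 10.56 and 10.71 in control livers, stood beside the lower megakaryocyte markers given above.

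Junction genes around the phosphatase were higher on balance. Of 12, 3 rose, 0 fell and 9 did not pass, and all 12 differences were positive (median 0.37, and 0.32 against control replicate 2 alone). Cdh5, Kdr, Cldn5 and Esam are also among the 18 pan-endothelial markers, so this list is not a separate observation from that one. The tight junction scaffold gene Tjp1 rose by 0.77 (SE 0.12, limma adjusted p = 0.017), the adhesion molecule gene Jam3 by 0.57 (adjusted p = 0.0381) and Cdh5 as above. When each array was left out in turn Tjp1 passed in 4 of 6 fits and Jam3 and Cdh5 in 1 each, and the number of the 12 that passed was 0 to 2. With the sex term no gene of the junction, FOXO or adaptor lists passed. With control replicate 3 left out the adjusted p-values were 0.0735, 0.117 and 0.138. Several of these genes are also expressed in hepatoblasts and mesothelium, of whose markers 2 of 14 and 3 of 10 rose. Over the 6 fits without 1 array these counts ran from 0 without labelled knockout replicate 3 or control replicate 3 to 6 without labelled knockout replicate 2 for hepatoblasts, and from 0 without control replicate 3 to 2 without labelled knockout replicate 2 for mesothelium, where each of the other 4 fits left 1. Neither list had a call with the sex term. The relatives of the angiopoietins showed no call among 6 measured (median 0.03). Angpt4, the remaining angiopoietin gene of the mouse, read 4.12, 4.28 and 3.99 in livers labelled knockout, against 4.27, 4.52 and 4.52 in control livers, a difference of −0.30 with overlapping groups (adjusted p = 0.169). Angptl6 (0.46, adjusted p = 0.209) and Angptl4 (−0.34, adjusted p = 0.338) did not pass either.

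**Figure D5:**
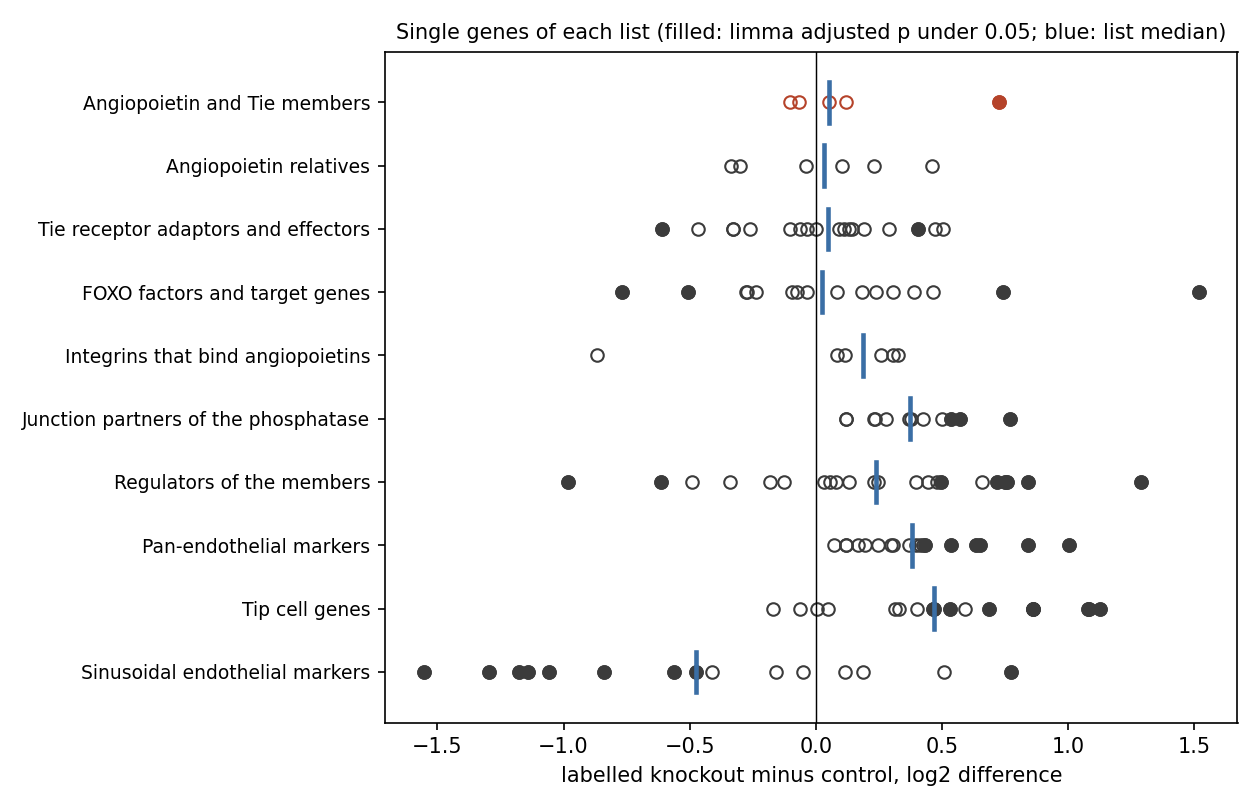
The labelled knockout minus control log2 difference (horizontal axis) of each measured gene in 10 lists, 1 row per list. Filled points passed a limma adjusted p of 0.05, open points did not, and the blue bar is the list median. Angpt2 stands apart from the other 4 genes of its row, and the median of tip cell genes is 0.47 against −0.48 for sinusoidal markers.

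Neighbouring genes did not repeat the change of Angpt2. Angpt2 lies on chromosome 8 inside the span of Mcph1, a gene of chromosome condensation, in GRCm38.p6. Mcph1 read 8.32, 8.06 and 8.09 in livers labelled knockout, against 8.41, 8.33 and 8.32 in control livers, a difference of −0.20 in the opposite direction that did not pass (limma adjusted p = 0.311). The nearest tested genes on either side, Csmd1 (−0.0039) and Agpat5 (−0.24), did not pass. None of the nearest tested genes of Angpt1 on chromosome 15 (Abra and Rspo2), of Tek (Ift74 and Eqtn) and Tie1 (Cdc20 and the clone 2610528J11Rik) on chromosome 4, or of Ptprb on chromosome 10 (Ptprr and Kcnmb4) passed.

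The genes whose values followed each member most closely were found among 11160 genes brighter than the median, by Pearson's r over the 6 arrays. For Angpt2 these were Gnas (r = 0.998), a G protein subunit gene, P4ha2 (r = 0.997), a collagen prolyl hydroxylase gene, and Lamb2 (r = 0.997), a laminin chain gene. P4ha2 read 7.23, 6.85 and 7.19 in livers labelled knockout, against 6.09, 6.12 and 6.06 in control livers, and rose by 1.00 (limma adjusted p = 0.00932), a call lost without control replicate 3 (adjusted p = 0.0536). Lamb2 rose by 0.57 (adjusted p = 0.0223), a call kept in 2 of the 6 fits without 1 array, and Gnas differed by 0.13 without passing (adjusted p = 0.409). For Angpt1 the closest were Pank1, Pyy and Cdc42ep1 (r = 0.964 to 0.975), for Tek Prxl2c, Selenop and Prss35 (0.975 to 0.99), for Tie1 Unkl, Mical2 and Homer1 (0.986 to 0.994) and for Ptprb Fam241b, Cggbp1 and Ssr1 (0.969 to 0.988). None of these 12 passed the group test. The 6 points share their arrays and their group structure, and with so few a high r is common, so these values only describe.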

How the data were processed

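Total RNA of whole fetal livers was measured on 6 arrays in 2 groups of 3, taken from the sample titles. The deposited table holds log2 values. The submitters' processing notes name RMA as the authors' method, without a version. Sorted values were identical in all 6 arrays (median 5.43), so a shift common to most genes is invisible here. Not given in the sources used here: chip definition and annotation build. Of 24479 features, 23281 had 1 gene symbol, 0 had several and 1198 had none; symbols were updated through a GRCm38.p6 RefSeq gene table, and where features shared a symbol the brighter was kept (23279 genes). There were 0 value columns that belonged to no sample.

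The group test was limma 3.58.1 under R 4.3.3 (lmFit and eBayes without covariate or filter on dim genes), labelled knockout minus control, with Benjamini-Hochberg adjustment over all genes. SE and intervals are moderated. The script was tested on simulated data first. Arrays give no counts, and their number limits the precision. The labels call the replicates biological. Within-array differences were tested by exact permutation over arrays. Lists were described by counts and medians, with no set test. Named genes were the members, up to 4 genes per described list with the smallest p, neighbours, the 3 genes closest by r to each member, Gata4, Vegfa and sex-linked genes. Mmrn2, Kdr, Foxo1, Epas1, Hif1a, Nos3, Plvap, Stab1, Stab2, Oit3, Dnase1l3, Cldn5, Esam, Fli1, Lyve1, Maf, Rspo3, Tfec, Mrc1, Tnnt2, Alb and Afp were added after their values were seen. So were Meis1, Mecom, Dll4, Cxcr4, Pdgfb, Plaur, Sox18, Sox17, Sox7, Erg, Foxc1, Lmo2, Prox1 and Gata2. The members and lists were chosen with earlier results of these data known. List genes without a tested symbol were not analysed here. Same-numbered arrays did not deviate together (r of deviations from group means −0.05, −0.01 and −0.08), so the replicate number was not used as a block.

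Alternatives covered the variance prior, normalisation, dim genes, array weights, the replicate block, embryo sex, thresholds, features and each array left out.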

Additional observations from a re-analysis of the deposited data

How the results depend on the processing

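Angpt2 remained the called gene of the 5, and no other was called, under median centring, a repeated quantile normalisation, robust eBayes, a variance trend, array weights, without the dimmest 25% or 50% of genes, features tested alone, an adjusted p of 0.1 and a minimum fold of 1.5. With the replicate block, which does not rest on a known pairing, its log2 difference stayed 0.72 (limma adjusted p = 0.0433) while the calls over all genes numbered 686 in place of 1480. With the sex term, or with control replicate 2 as the only control, 0 of the 5 genes were called and Angpt2 stood at 0.67. All genes called numbered 3 and 0 in those fits, which have fewer degrees of freedom. The sign of some small differences turned: Tie1 became −0.012 in both sex-matched fits, and Tek 0.0496 and Ptprb 6e-04 with array weights. The cause was not tested. Without 1 array, 0 to 1 genes were called, and the log2 differences ranged from −0.0464 to 0.22 for Angpt1, 0.67 to 0.83 for Angpt2, −0.28 to 0.22 for Tek, 0.01 to 0.12 for Tie1 and −0.31 to 0.0741 for Ptprb. Within arrays, Angpt2 minus Angpt1 ranged from 0.49 to 0.72, Tie1 minus Tek from −0.10 to 0.31 and Ptprb minus Tek from −0.26 to 0.11. Relative to the endothelial marker level, the ranges were −0.79 to −0.52 for Tek, −0.67 to −0.45 for Tie1, −0.91 to −0.55 for Ptprb, 0.01 to 0.21 for Angpt2 and −0.56 to −0.34 for Angpt1. With centred markers these became −0.44 for Tek, −0.32 for Tie1, 0.35 for Angpt2 and −0.26 for Angpt1, and against control replicate 2 alone the Angpt2 value was −0.0342. The centring was chosen after seeing the data. Signal over background is not in the values used, which limits what can be said of dim features.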
